A study of Mus musculus with 7 samples.

Results

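The NR4A receptors and a set of genes driven by the transcription factor CREB were followed in electrically stimulated muscle cells. The set was fixed by symbol and holds 10 genes, Nr4a1, Nr4a2, Nr4a3, Sik1, Crem, Ier2, Ier3, Dusp1, Btg2 and Maff, of 26607 genes listed. All 10 symbols were present, and all 10 had reads in every library. The cells were C2C12, an established mouse myoblast line that fuses into multinucleate myotubes when serum is withdrawn. The control group holds 3 libraries of untreated C2C12 myotubes, numbered 1, 3 and 4. The EPS group holds 4 libraries, numbered 1 to 4, of C2C12 myotubes treated by electrical pulse stimulation (EPS), which drives contraction in culture. Per the study's methods, both groups were differentiated for 3 days in low serum, EPS ran at 1 Hz for 24 h, and 1 h of rest followed. The model is 1 line of cultured cells without nerve, vessels or load.

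Early response genes are copied into mRNA soon after a stimulus without new protein synthesis, and most of their transcripts are short-lived. A rise in calcium or cAMP activates kinases that phosphorylate CREB, and CREB then acts through cAMP response elements in promoters together with its CRTC coactivators. In muscle, contraction and adrenergic signals are known to induce the NR4A receptors within hours, and several products of this gene set, such as Sik1 and the short ICER forms of Crem, feed back to dampen the same pathway.

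Promoter sequences from RefSeq on GRCm38.p6 were matched for 7 of the 10 genes, in 9 windows of 300 bases running from 250 bases before a transcription start site to 50 bases after it. Crem, Ier2 and Sik1 were not matched. The search used the cAMP response element TGACGTCA and its 5-base core, TGACG or CGTCA, which together cover both strands. Each whole element contains 2 overlapping cores. A whole element was found in 3 of the 7 genes, Btg2, Dusp1 and Maff, and in 588 of all 32851 promoter windows, or 1.79%. A core was found in 6 of the 7 genes and in 20.8% of all windows. Nr4a1, Nr4a2 and Nr4a3 each had 4 cores and no whole element, and 0.231% of all windows had 4 or more cores. Ier3 had no core. The CArG box, which is the site of serum response factor, and the NR4A element AAAGGTCA, searched on both strands, were in none of the 9 windows and in 1.63% and 1.51% of all windows. These are matches of letters, not measured binding. The counts are of genes and the shares are of windows, and Maff has 3 of the 9 windows. Because the set was gathered as CREB-driven genes, more matches than in all windows may follow from that choice. The stretches shown are those with a whole element or with at least 3 cores, with cores in capitals and the sequence 5′ to 3′ on the strand of the gene. The Nr4a1 stretch lies at chr15:101266596-101266830 (plus strand), Nr4a2 at chr2:57124090-57124223 (minus), Nr4a3 at chr4:48045055-48045124 (plus), Dusp1 at chr17:26508588-26508683 (minus), Btg2 at chr1:134079294-134079341 (minus) and Maff at chr15:79347471-79347518 (plus). In the GENCODE annotation, the stretches of Nr4a1, Dusp1 and Maff are intronic, next to internal start sites, and those of Nr4a2, Nr4a3 and Btg2 lie upstream of the gene. The core of Nr4a3 nearest its start site is in an annotated exon and is not printed, so its stretch shows 3. The third Maff window has 1 core, which is not printed.
Nr4a1: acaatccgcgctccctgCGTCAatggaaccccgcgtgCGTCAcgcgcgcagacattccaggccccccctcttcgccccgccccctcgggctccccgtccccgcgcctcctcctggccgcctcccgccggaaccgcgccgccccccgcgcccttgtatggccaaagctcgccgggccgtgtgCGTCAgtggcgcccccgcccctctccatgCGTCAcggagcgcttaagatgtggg
Nr4a2: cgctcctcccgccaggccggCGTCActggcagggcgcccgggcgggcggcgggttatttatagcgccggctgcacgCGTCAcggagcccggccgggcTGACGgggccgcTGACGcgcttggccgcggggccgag
Nr4a3: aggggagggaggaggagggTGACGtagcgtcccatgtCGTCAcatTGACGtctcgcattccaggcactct
Dusp1: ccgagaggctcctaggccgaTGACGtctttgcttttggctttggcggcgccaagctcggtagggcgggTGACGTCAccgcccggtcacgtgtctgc
Btg2: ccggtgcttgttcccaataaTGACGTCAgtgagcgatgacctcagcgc
Maff: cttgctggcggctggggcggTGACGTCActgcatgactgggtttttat

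**Figure D1:**
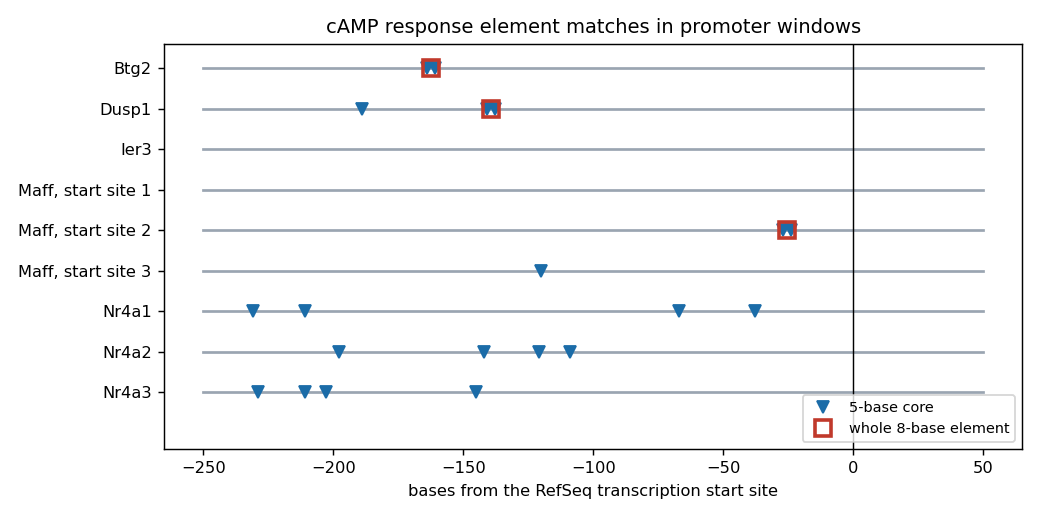
Matches to the cAMP response element in the promoter windows of 7 genes, by distance in bases from the RefSeq start site (0). Triangles mark 5-base cores and squares mark whole 8-base elements, which are in Btg2, Dusp1 and the second Maff start site, while the NR4A genes have 4 separate cores each.

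The values are CPM, the reads of a gene scaled to a common library total. Whole reads could be recovered from them, with totals of 16616917 to 22120641 reads in the control group and 18830229 to 21892568 in the EPS group. Control replicate 4 stood apart, where only 359 genes had 1 to 5 reads, a class of 2670 to 3181 genes elsewhere. Myotube markers were present. Of 10 on the list, 9 were listed and each had a mean of at least 1 CPM, summing to 16770 to 20290 CPM in the control and 11398 to 18087 CPM in the EPS group. None of the 9 had a log2 fold change above 0, and none was called. Only Myod1 (-0.88) did not overlap between the groups. Among the control libraries, replicate 4 was the highest for Des, Tnnt3, Myog, Ckm and Myod1. It was the lowest for Ttn and Acta1 and lay between the others for Myh3 and Myh8. Myoblast and proliferation markers (6 of 6 listed) summed to 244 to 313 CPM in the control and 266 to 756 CPM in the EPS group, of which Mki67 and Top2a make up most. The list was split, with Mki67 (log2 fold change 1.27), Top2a (0.86) and Myf5 (0.20) above 0. Id1 (-1.09), Id3 (-0.96) and Pax7 (-0.12) were below, and none of the list was called. Without control replicate 4, Id1 was at -0.65 and Id3 at -0.73. The part of these markers in the results was not tested. In bulk RNA, fewer cells of a type and less RNA per cell cannot be told apart. Markers of adipocytes and of neurons summed to at most 0.0465 CPM in any library, with Plin1, Cidec, Snap25 and Syt1 at 0 throughout. Those of endothelium, blood and epithelium summed to at most 0.904, 2.18 and 3.71 CPM. The labels do not say that the libraries came from separate cultures, so p-values measure only the spread between these libraries.

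None of the 10 genes passed an unadjusted P under 0.01 with a change of over 2-fold between control and EPS, the thresholds of the study's results. Its methods give a P under 0.001 with at least 2-fold, and none passed that pair in limma either. Over all 19144 tested genes, 269 passed, or 1.41%. None of the 10 passed in edgeR or DESeq2 either, where 3.29% and 3.06% of genes did. In limma on log2(CPM + 1), 7 of the 10 genes had a log2 fold change above 0 and 3 below 0, from -0.84 (Sik1) to 0.48 (Crem). Of all tested genes, 63.3% were above 0. After quantile normalization, Nr4a1 (-0.11) and Dusp1 (-0.0088) were below 0 as well. The median of the 10 genes in limma on log2(CPM + 1) was 0.17. It was 0.04 over all tested genes and 0.10 over genes with a mean of at least 1 CPM. In 3 of the 10 genes the control and EPS values did not overlap, which was the case for 10.6% of all tested genes. Those were Sik1 and Ier2, lower in the EPS group (2.85% of all tested genes), and Nr4a3, higher (7.76%). The same 3 genes had an unadjusted P under 0.05 in limma, which for Nr4a3 did not hold in edgeR or DESeq2. In limma that P was reached by 11.6% of all tested genes, 8.40% higher and 3.21% lower in the EPS group. No gene of the set had a Benjamini-Hochberg adjusted p under 0.05 in limma, where the lowest was 0.214, for Sik1, and 0.141% of all tested genes did. Without control replicate 4, the library that stood apart, the log2 fold change of Sik1 was -0.75, of Ier2 -0.34, of Nr4a3 0.24 and of Crem 0.67.

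**Figure D2:**
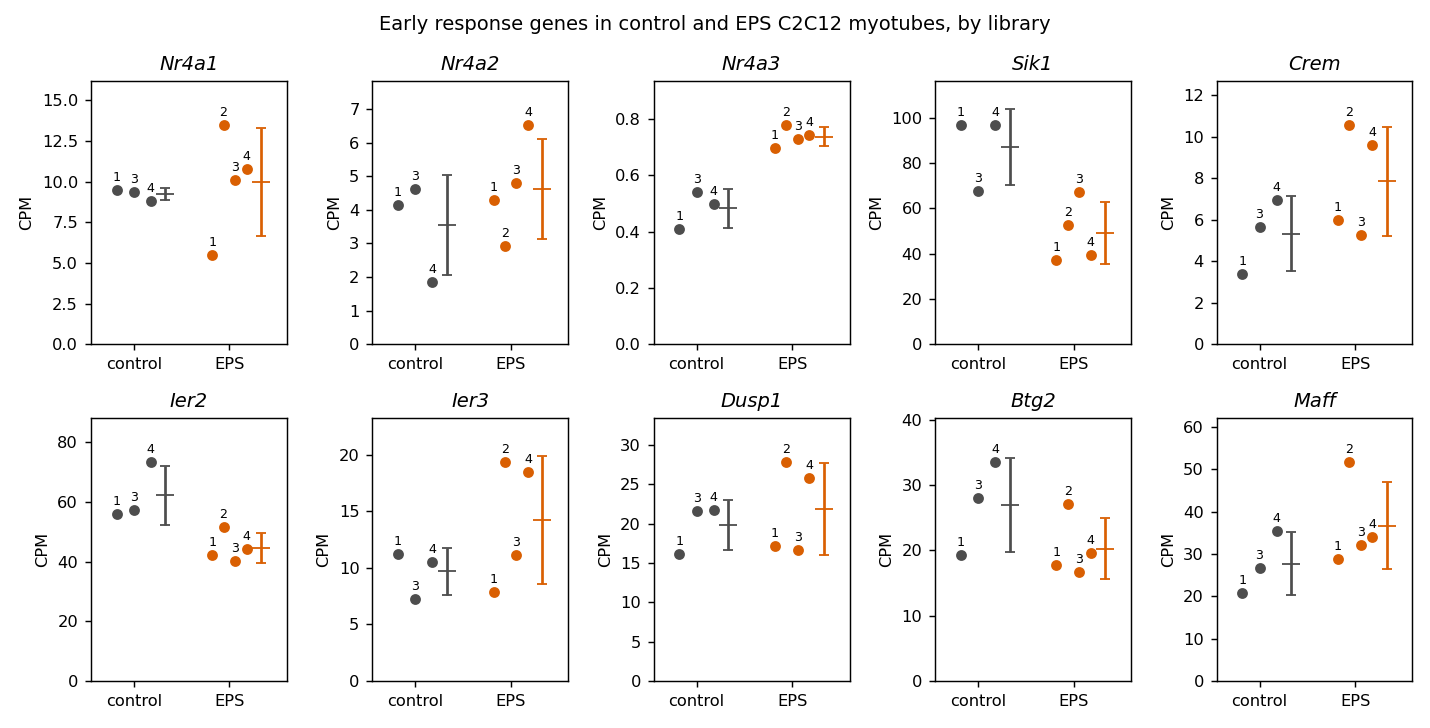
CPM of the 10 genes in each library, with the replicate number above each point. Beside the points is the group mean with its SD (control n = 3, EPS n = 4). The groups do not overlap for Sik1, Ier2 and Nr4a3, and EPS replicate 2 is the highest of all libraries for 6 of the genes.

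Sik1 (ENSMUSG00000024042.7, chromosome 17 of GRCm38 from 31844250 to 31855804) encodes salt-inducible kinase 1, a CREB target that phosphorylates CRTC coactivators and class IIa histone deacetylases and so closes a negative feedback loop. Its levels were 97.0, 67.8 and 96.9 CPM in control replicates 1, 3 and 4, and 37.1, 52.9, 67.2 and 39.4 CPM in EPS replicates 1 to 4. The EPS values were all lower than the control values, although the highest EPS value and the lowest control value, both of replicate 3, nearly met. Their 95% counting intervals (Clopper-Pearson), 63.8 to 70.7 CPM and 63.9 to 71.8 CPM, overlapped. Mean levels were 87.2 ± 16.8 CPM (SD, n = 3) and 49.2 ± 13.9 CPM (SD, n = 4), so the EPS mean was 56.4% of the control mean. On the log2 scale the difference was -0.84 with a standard error of 0.24 and a 95% interval of -1.37 to -0.30 (limma unadjusted P = 0.00662, adjusted p = 0.214, exact permutation test p = 0.0571). With 3 against 4 libraries, the permutation test cannot go below 0.0286. Sik1 passed the P-value threshold but not 2-fold. Without control replicate 3 it passed both, at -1.01. Without control replicate 1 or 4, or without EPS replicate 1 or 4, it was at -0.75 to -0.72 and no longer passed the P-value threshold. On the recovered reads the adjusted p was 0.0528 in edgeR and 0.0265 in DESeq2, with log2 fold changes of -0.93 and -0.94. Its unadjusted P there, 0.000814 in edgeR and 0.0007 in DESeq2, was under 0.001, and only 2-fold was missed.

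Crem (ENSMUSG00000063889.16, chromosome 18 from 3266048 to 3337748) encodes the cAMP response element modulator, whose promoters and splicing give both activators and the ICER repressors. Gene-level values do not separate these forms. Crem was at 3.38, 5.66 and 6.96 CPM in control replicates 1, 3 and 4, and at 6.005, 10.6, 5.25 and 9.61 CPM in EPS replicates 1 to 4. EPS replicates 2 and 4 were above every control library, and EPS replicates 1 and 3 lay among them. With a 95% interval of -0.27 to 1.23, the log2 fold change of 0.48 did not pass (limma adjusted p = 0.630), and it was 0.23 without control replicate 1. A gene on the opposite strand, Gm6225, overlaps the start of Crem and shares 3.95% of the 100-base stretches of its longest transcript. Gm6225 was at most at 0.244 CPM.

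The NR4A genes encode orphan nuclear receptors that are active without a known ligand. Their mRNA was measured here, not their activity. Nr4a1 (NUR77; ENSMUSG00000023034.7, chromosome 15 from 101254269 to 101274795) was at 9.50, 9.39 and 8.82 CPM in control replicates 1, 3 and 4, and at 5.49, 13.5, 10.1 and 10.8 CPM in EPS replicates 1 to 4. The control libraries were close together and the EPS libraries lay on both sides of them. The coefficient of variation was 3.99% in the control and 33.4% in the EPS group, a difference in spread that was not tested. Between the groups the log2 fold change was 0.04 (95% interval -0.63 to 0.72), which as a fold on this scale runs from 0.645 to 1.64 (exact permutation test, p = 0.914). Its sign turned with the scaling, to -0.11 after quantile normalization.
Nr4a2 (NURR1; ENSMUSG00000026826.13, chromosome 2 from 57106830 to 57124003) was at 4.14, 4.63 and 1.85 CPM in control replicates 1, 3 and 4, and at 4.28, 2.92, 4.80 and 6.53 CPM in EPS replicates 1 to 4. Control replicate 4 was the lowest of all libraries. The log2 fold change of Nr4a2, 0.33 (95% interval -0.42 to 1.09), became 0.03 without that library and 0.52 without control replicate 3.
Nr4a3 (NOR1; ENSMUSG00000028341.9, chromosome 4 from 48045153 to 48086447), the receptor most often linked to endurance exercise, was the lowest of the 10 genes. Its values rest on 7, 9 and 11 reads in the control libraries and on 15, 16, 16 and 14 reads in the EPS libraries. In CPM every EPS library, at 0.698 to 0.779, was above every control library, at 0.408 to 0.542. The control mean of 0.482 ± 0.0680 CPM (SD, n = 3) and the EPS mean of 0.738 ± 0.0336 CPM (SD, n = 4) had a ratio of 1.53 (exact permutation test, p = 0.0286, the smallest possible). On the log2(CPM + 1) scale, which understates the change of low genes, it was 0.23 (limma adjusted p = 0.341). With so few reads, the 95% Clopper-Pearson interval was 0.164 to 0.841 CPM for control replicate 1 and 0.391 to 1.15 CPM for EPS replicate 1, which overlap. The log2 fold change was 0.51 in edgeR (unadjusted P = 0.417) and 0.50 in DESeq2 (unadjusted P = 0.399) and passed neither threshold there. With a pseudocount of 0.5 or 0.1 in place of 1, its limma unadjusted P was 0.0674 or 0.218. The interval covers counting error only, because PCR copies of 1 molecule are counted as separate reads.

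Ier2 (ENSMUSG00000053560.4, chromosome 8 from 84661331 to 84662852) encodes a nuclear protein of the immediate early class induced by growth factors. Its levels were 55.9, 57.2 and 73.6 CPM in control replicates 1, 3 and 4, and 42.1, 51.6, 40.2 and 44.2 CPM in EPS replicates 1 to 4. All EPS libraries were below all control libraries. The EPS mean was 71.6% of the control mean, at 44.5 ± 4.98 CPM (SD, n = 4) against 62.2 ± 9.84 CPM (SD, n = 3). On the log2 scale this is -0.47 (standard error 0.16, limma unadjusted P = 0.0172, adjusted p = 0.292, exact permutation test p = 0.0571), which was -0.34 without control replicate 4.
Ier3 (ENSMUSG00000003541.6, chromosome 17 from 35821684 to 35822923), a stress-induced regulator of cell survival also called IEX-1, was at 11.3, 7.28 and 10.5 CPM in control replicates 1, 3 and 4, and at 7.82, 19.4, 11.1 and 18.5 CPM in EPS replicates 1 to 4. As for Crem, EPS replicates 2 and 4 were above every control library and the other EPS libraries were not. For Ier3 the log2 fold change was 0.45 (standard error 0.34, 95% interval -0.32 to 1.21), which was 0.27 without control replicate 3 and 0.68 without EPS replicate 1.

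Dusp1 (ENSMUSG00000024190.7, chromosome 17 from 26505590 to 26562128) encodes a nuclear phosphatase that switches off p38, JNK and ERK kinases. It was at 16.1, 21.5 and 21.7 CPM in control replicates 1, 3 and 4, and at 17.1, 27.9, 16.6 and 25.8 CPM in EPS replicates 1 to 4. EPS replicates 2 and 4 were again above, and replicates 1 and 3 within, the control range. Its log2 fold change was 0.11 (95% interval -0.44 to 0.66) and turned sign under quantile normalization, to -0.0088. In the GENCODE annotation an upstream exon of Dusp1 overlaps Ergic1 on the opposite strand, a gene at up to 187 CPM, and the use of strand in the counting is not given in the sources used here.
Btg2 (ENSMUSG00000020423.6, chromosome 1 from 134075170 to 134079120), an antiproliferative protein that recruits the CCR4-NOT deadenylase to mRNA, was at 19.4, 28.0 and 33.6 CPM in control replicates 1, 3 and 4, and at 17.7, 27.1, 16.7 and 19.5 CPM in EPS replicates 1 to 4. The groups overlapped, since EPS replicates 2 and 4 were above control replicate 1. The log2 fold change of Btg2 was -0.39 (95% interval -0.94 to 0.17), and it was -0.22 without control replicate 4 and -0.60 without control replicate 1. In edgeR and DESeq2 it was -0.52 and -0.54, short of both thresholds.
Maff (ENSMUSG00000042622.14, chromosome 15 from 79346621 to 79359076) encodes a small MAF factor without a transactivation domain, which pairs with NRF2 or BACH1 at antioxidant response elements. It was at 20.8, 26.7 and 35.5 CPM in control replicates 1, 3 and 4, and at 28.9, 51.8, 32.0 and 33.99 CPM in EPS replicates 1 to 4. Only EPS replicate 2 was above the highest control library, which was replicate 4. Its log2 fold change was 0.39 (95% interval -0.18 to 0.96), which was 0.58 without control replicate 4 and 0.21 without control replicate 1 or EPS replicate 2.

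**Figure D3:**
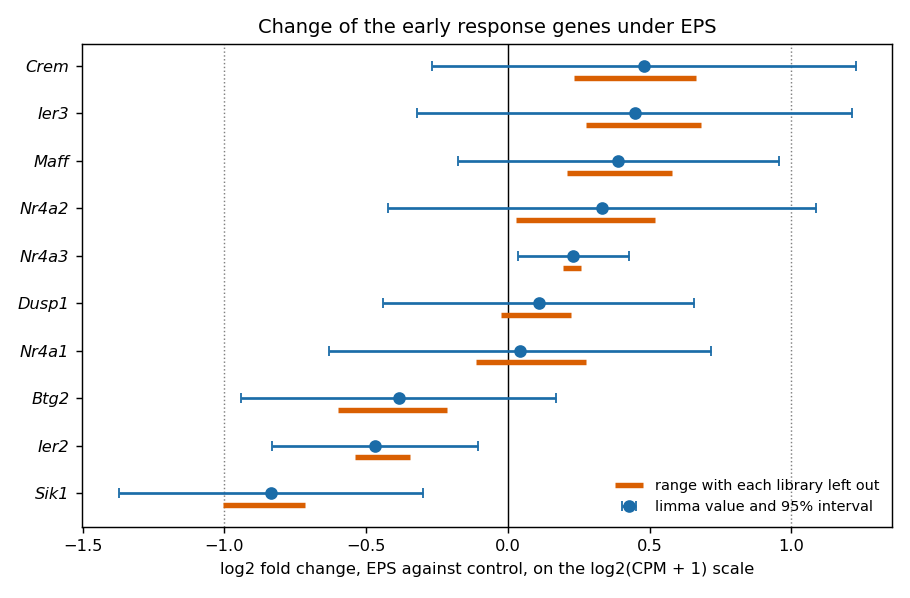
Log2 fold change of each gene between EPS and control on the log2(CPM + 1) scale, with its 95% interval from limma (blue) and, under it, the range of values when each of the 7 libraries was left out (orange). Dotted lines mark 2-fold. The intervals of Sik1, Ier2 and Nr4a3 do not reach 0, and no value passes 2-fold with all libraries.

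The 10 genes differed widely in level. Per kilobase of exon in the GENCODE annotation, Ier2 was the highest in both groups, at 40.9 ± 6.47 CPM per kb (SD, n = 3) in the control and 29.3 ± 3.27 CPM per kb (SD, n = 4) in the EPS group, and its libraries were all above those of the next gene. Sik1 was second in the control, at 17.0 CPM per kb, but in the EPS group, at 9.58 CPM per kb, it came behind Maff at 14.1 and Ier3 at 12.6. From the second gene to the sixth, Dusp1, neighbours in the order overlapped in both groups. Nr4a1 was the highest NR4A gene, at 2.63 CPM per kb in the control and 2.84 in the EPS group, against 0.873 and 1.14 for Nr4a2. Crem and Nr4a2 overlapped in both groups, and in the EPS group Crem also overlapped Nr4a1. Nr4a3, at 0.0806 and 0.123 CPM per kb, lay below every other gene in both groups.

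The libraries of a group did not move alike. EPS replicate 2 was the highest EPS library for 8 of the 10 genes and the highest of all 7 libraries for 6, Nr4a1, Nr4a3, Crem, Ier3, Dusp1 and Maff. EPS replicate 1 was the lowest EPS library for 5 genes. Among the control libraries, replicate 1 was the lowest for 6 genes and replicate 4 the highest for 5. Crem and Dusp1 were the most alike pair over the 7 libraries, with Pearson r = 0.899 and Spearman rho = 0.964, and r = 0.961 for the deviations from the group means. Maff was most like Crem (r = 0.890), Btg2 most like Ier2 (r = 0.872), Ier3 most like Nr4a1 (r = 0.753), Sik1 most like Ier2 (r = 0.723) and Nr4a3 most like Crem (r = 0.713). For Nr4a2 the highest r was 0.321, to Nr4a3. For the deviations from the group means, r was 0.846 for Maff and Crem, 0.891 for Btg2 and Ier2, 0.822 for Ier3 and Nr4a1 and 0.736 for Nr4a3 and Crem. It was 0.147 for Sik1 and Ier2 and -0.173 for Nr4a2 and Nr4a3. These pairs were picked by r over the 7 libraries, and the deviations gave other pairs. For the deviations Btg2 and Maff were most like each other (r = 0.960), against r = 0.382 over the 7 libraries. These values describe 7 libraries that share their scaling, and no p is given. Outside the set, the genes closest to its mean standardized profile, of 12247 with a mean of at least 1 CPM, were Prkra (r = 0.966), Glb1 (r = 0.964), Naaa (r = 0.963), A030009H04Rik (r = 0.958) and Glo1 (r = 0.953). Their log2 fold changes between the groups were 0.00 to 0.25.

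**Figure D4:**
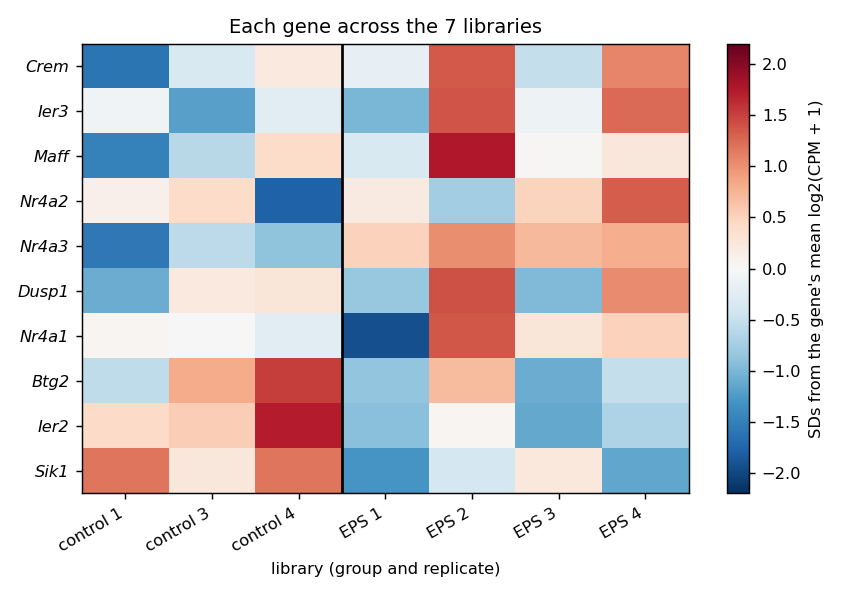
Each gene across the 7 libraries, as SDs from the gene's own mean log2(CPM + 1) (colour scale, red above and blue below the mean), with a line between control and EPS. EPS replicate 2 is red for the 6 genes of which it is the highest library, and Sik1, Ier2 and Btg2 have their highest values in the control.

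Genes of the same pathways were counted on 10 lists, which name 131 distinct tested genes outside the set. None of the 131 rose past both thresholds and 5 fell, the zinc finger factors Egr1, Egr2 and Egr3, the matricellular protein Ctgf (Ccn2) and the growth factor Hbegf. The split depends on the fit, with 2 higher and 6 lower at a pseudocount of 0.1, 5 higher and 9 lower in edgeR, and 4 higher and 11 lower in DESeq2. The 5 genes are 3.82%, against 1.41% of all tested genes in either direction and 0.439% downward. Without overlap between groups, 17 of the 131 (13.0%) were lower and 8 (6.11%) higher in the EPS group, against 2.85% and 7.76% of all tested genes.
In the list of FOS, JUN and EGR factors, the other arm of the early response, 3 of 10 tested genes fell and none rose, with a median log2 fold change of -0.35. Egr1 fell from 94.2 to 114 CPM in the control libraries to 39.5 to 57.6 CPM in the EPS libraries (log2 fold change -1.14, adjusted p = 0.0542 from limma), while the most abundant members, Junb (-0.68) and Jund (-0.20), did not pass. Named after their values were seen, Fosl2 was higher without overlap, at 131 to 185 CPM in the control and 223 to 297 CPM in the EPS libraries (log2 fold change 0.74, limma adjusted p = 0.143), and Fosl1 was at 1.07 with overlap (limma adjusted p = 0.328). In edgeR and in DESeq2 4 genes of this list passed, the EGR genes downward and Fosl1 upward. Without EPS replicate 3, 4 passed, again the EGR genes downward and Fosl1 upward (log2 fold change 1.35). Without EPS replicate 4, 2 passed, Egr1 and Egr3, and the same 2 passed at a P under 0.001.
Of 34 other early response genes, 2 fell, Ctgf (-1.33, adjusted p = 0.0712 from limma) and Hbegf (-1.07, adjusted p = 0.0690), and none rose. Without control replicate 4, 1 gene of this list passed, which was Ctgf, and without EPS replicate 2 Hbegf did not pass and Id3 did. In edgeR 5 passed, Ctgf, Hbegf, Id3 and Ier5l downward and Atf3 upward. Atf3 was high in EPS replicate 4 alone, at 39.7 CPM against 1.99 to 3.65 CPM elsewhere, and Ier5l in control replicate 4 alone, at 107 CPM against 19.1 to 29.7 CPM. In DESeq2 5 passed, all downward, Ctgf, Hbegf, Id3, Ier5l and Spry2. The groups did not overlap in 8, all lower in the EPS group, which is 23.5% of the list, and the median was -0.29. The most abundant were Rhob (-0.52) and Bhlhe40 (-0.09).

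None of the 20 other CREB and cAMP response targets passed both thresholds in limma, with a median of -0.04. Cited2 (0.56) and Tiparp (1.24) were the most abundant. This count depends on the fit, since limma gave 3 with a pseudocount of 0.1 (Areg and Tiparp higher, Id1 lower), 2 with a pseudocount of 0.5 (Areg and Tiparp, higher), 2 among genes with a mean of at least 1 CPM (Tiparp higher, Id1 lower) and 1 after quantile normalization or median-of-ratios scaling (Id1, lower). In edgeR and in DESeq2 4 passed, Areg, Tiparp and Ptgs2 higher and Id1 lower. With 1 library left out the count was 2 without EPS replicate 1 (Ptgs2 and Tiparp), 1 without control replicate 3 (Ptgs2) and 1 without EPS replicate 3 (Areg), all higher. The growth factor gene Areg and Ptgs2, the inducible cyclooxygenase, were named after their values were seen. Areg was at 0 to 0.361 CPM in the control and 0.502 to 2.55 CPM in the EPS libraries, without overlap. Its 0 was in control replicate 4, the library that stood apart. The log2 fold change of Areg was 0.85, and 0.77 without that library. As for Nr4a3, the log2(CPM + 1) scale understates the change of so low a gene. With a pseudocount of 0.1 the value for Areg was 2.46. The count fits put Areg at 2.99 (edgeR, adjusted p = 0.111) and 3.02 (DESeq2, adjusted p = 0.043). Ptgs2 had a log2 fold change of 1.09 with overlap (limma adjusted p = 0.332). CREB, its coactivators and the protein kinase A subunits gave 0 of 14, with a median of 0.08. Prkar1a, the regulatory subunit of the kinase and the most abundant gene of that list, was at 1108 to 1335 CPM in the control and 812 to 970 CPM in the EPS libraries (log2 fold change -0.46, adjusted p = 0.496 from limma), and the catalytic subunit Prkaca was at -0.23.
The list of the SIK family also holds its upstream kinase Stk11, its CRTC and histone deacetylase substrates, and the MEF2 factors that those deacetylases bind. Of these 0 of 13 passed (median 0.16), with Mef2c at -0.80 and Mef2a at 0.06. Of the MAP kinase phosphatases and their kinases 0 of 16 passed (median -0.14), with Mapk3 at 0.42, while Dusp6 passed, lower, in edgeR, after quantile normalization and without control replicate 1, and Dusp6 and Dusp8 did in DESeq2. The BTG/TOB family and CCR4-NOT gave 0 of 11 (median 0.09), with Cnot1 at 0.17 and Cnot6l at -0.17. Of the small MAF factors and their partners 0 of 7 passed (median 0.26), with Nfe2l1 at -0.45 and Nfe2l2 at 0.28. The NR4A partners gave 0 of 3 (median 0.05), with Rxra at 0.24 and Rxrb at -0.41. Of 8 genes of muscle glucose use that are tied to Nr4a1, 0 passed (median 0.05). Eno3, the muscle enolase, was at -0.36, and Pfkm, the muscle phosphofructokinase, was at 331 to 426 CPM in the control and 171 to 279 CPM in the EPS libraries (log2 fold change -0.78, adjusted p = 0.186 from limma). Several of these values for abundant genes rest on control replicate 4. Without it the log2 fold change was -0.20 for Junb, 0.19 for Jund, 0.09 for Rxrb, -0.05 for Eno3, -0.16 for Mef2a, 0.02 for Nfe2l2, -0.27 for Bhlhe40, 0.37 for Cited2 and -0.35 for Cnot6l, and it was within 0.01 of 0 for Prkaca and Cnot1.

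**Figure D5:**
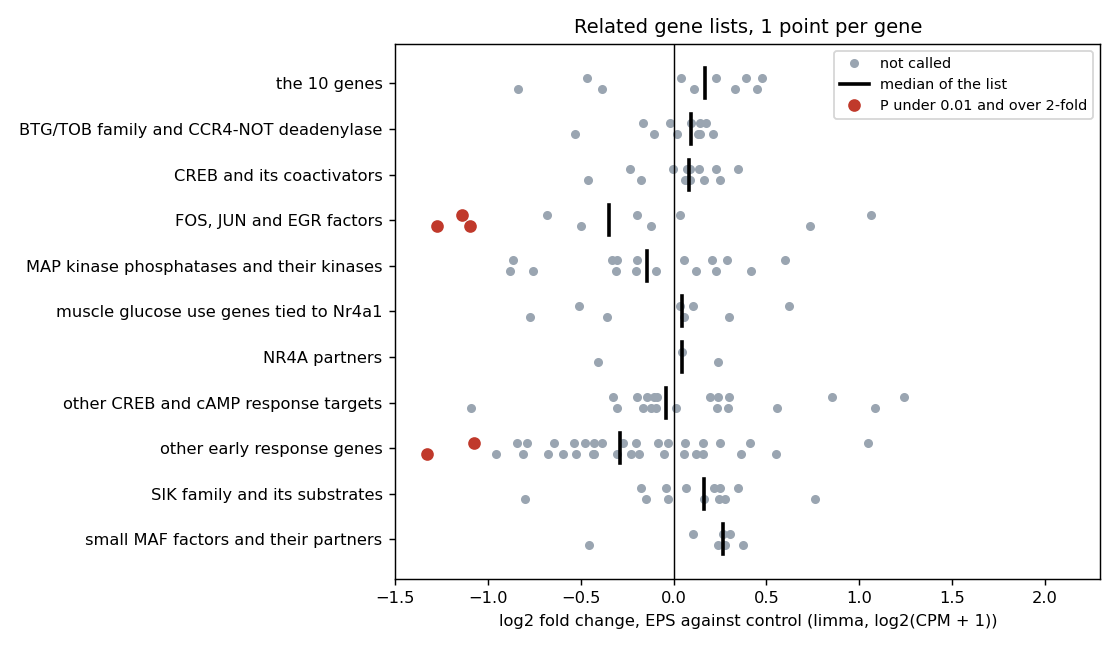
Log2 fold change between EPS and control of every tested gene on the related lists, 1 point per gene, with the list median as a bar. Red points passed P under 0.01 and over 2-fold in limma. The 5 red genes lie below 0 and belong to the FOS, JUN and EGR factors and the other early response genes.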

How the data were processed

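Poly(A)-selected RNA went into strand-marking libraries, read from both ends at 100 bp. The submitters' processing notes name STAR 2.5.4b and the build GRCm38. CPM values were deposited by the authors, 1 file per library, and are neither logged nor quantile-normalized. The counter, annotation and strand setting are not given in the sources used here. Every value (100%, within 0.02 of a whole number) was a multiple of the worth of 1 read, so reads were recovered.

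Testing covered genes with any read, as log2(CPM + 1) with limma 3.58.1 in R 4.3.3 (empirical Bayes with a trend, no covariate, all 7 libraries), with Benjamini-Hochberg adjustment over all 19144 genes. The study's count test was not the reported one because the unit is CPM, and edgeR 4.0.16 (quasi-likelihood) and DESeq2 1.42.0 were run on the recovered reads as alternatives, calling 629 and 585 genes. Other alternatives were pseudocounts of 0.1 and 0.5, a mean of at least 1 CPM, quantile normalization, median-of-ratios scaling, the P-value threshold of 0.001 stated in the study's methods, the replicate number as a block, and leaving out each library. Single genes were also given an exact two-sided permutation test over 35 splits. The fits were tested on simulated data.

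The 10 genes and the lists were chosen with earlier results of these data known, so no list was tested as a set. Named besides the 10 genes are every list gene past both thresholds, the 2 most abundant of each list (1 gene is not reported here), and the 5 genes nearest to the set's mean profile. Other list genes are named where an alternative called them or where the text says that they were chosen after their values were seen. Positions are those of GENCODE M21, which may differ from the authors' annotation.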

Additional observations from a re-analysis of the deposited data

How the results depend on the processing

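Against 269 genes on the deposited scale, 601 passed both thresholds with a pseudocount of 0.1, 629 in edgeR, 585 in DESeq2, 106 at P under 0.001 and 209 to 325 with each library left out. Of the calls, 68.8% were higher in the EPS group. This share was 51.6% with quantile normalization, which moved the median of genes at 1 CPM or more from 0.10 to 0.0052. It was 52.8% with median-of-ratios scaling, which moved that median to -0.0048. Of the 10 early response genes, 0 to 1 passed with a library left out, the 1 being Sik1 without control replicate 3. Over 15 alternatives, 138 of 149 values kept their sign, and 8 of the 10 genes kept it in all of them. Part of this tally could not differ. Values with a minimum mean of 1 CPM equal the main ones by construction, so their sign could not turn. Values with the replicate number as a block equal those without EPS replicate 2 and are counted again. The genes whose sign turned were Nr4a1 and Dusp1, with sizes of at most 0.112 where it did. Nr4a1 was at -0.11 after quantile normalization, -0.061 after median-of-ratios scaling, -0.0013 in edgeR, -0.012 in DESeq2, -0.11 with the replicate number as a block, and -0.11 to 0.27 with each library left out. Dusp1 was at -0.0088 after quantile normalization, -0.016 with the block, and -0.025 to 0.22 with each library left out. The cause was not tested. Nr4a3 has no value with a minimum mean of 1 CPM, which it does not reach. Same-numbered control and EPS libraries deviated from their group means with Pearson r of 0.245, -0.447 and 0.0679 across 12256 genes for numbers 1, 3 and 4, so the numbers do not show a pairing. With the block 161 genes passed, none of them among the 10, and Sik1, at -0.88, missed the P-value threshold. Of the 5 called list genes, Ctgf, Egr1 and Egr3 passed with the block, and Egr2 and Hbegf did not. Nr4a3 rests on 7 to 16 reads per library.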

Other observations

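Some genes near the set were noticed only after their values were seen. The MAP kinase phosphatase genes Dusp6 and Dusp8, which unlike Dusp1 did not overlap between the groups, had log2 fold changes of -0.88 (adjusted p = 0.127 from limma) and -0.87 (adjusted p = 0.114), under 2-fold in limma on log2(CPM + 1). Dusp6 passed 2-fold in edgeR (-1.04), DESeq2 (-1.05) and after quantile normalization (-1.01), and Dusp8 did in DESeq2 (-1.01). Dusp6, the ERK-selective cytoplasmic phosphatase, was at 24.95 to 37.7 CPM in the control and 14.3 to 18.8 CPM in the EPS libraries. The class IIa histone deacetylase Hdac7, of a family whose members are substrates of SIK kinases, was at 48.7 to 51.4 CPM in the control and 74.2 to 97.4 CPM in the EPS libraries, which is 0.76 higher on the log2 scale (limma adjusted p = 0.0965). Mafg and Mafk, the other small MAF genes, were above the control range in every EPS library, while Maff was not. Mafg and Mafk had log2 fold changes of 0.37 and 0.30 (adjusted p = 0.413 and 0.480 from limma). With 1 library left out, Mafg was at 0.22 (without control replicate 3) to 0.46. Mafk was at 0.20 (without control replicate 4) to 0.42. Whether the members of each family differ in their change was not tested.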
